A study of Mus musculus with 16 samples.

Results

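The genes described here encode myelin proteins and enzymes of oligodendrocytes, the cells that wrap axons of the central nervous system. The 9 listed members were *Mbp*, *Mobp*, *Cnp*, *Mag*, *Mog*, *Cldn11*, *Opalin*, *Ermn* and *Enpp6*, and each was matched by its gene name. All 9 were among the 55487 genes of the table and among the 18859 that passed the filter on low values. RNA-Seq was done on the cortex of 16 male C57Bl6 wild-type mice, 2 months of age, which got i.p. injections on 2 consecutive days and were harvested on day 3, 24 hours after the last injection. LPS, a bacterial endotoxin that triggers systemic inflammation, was given at 2 mg/kg, and controls were given PBS. Injections were at ZT1, 1 hour after lights-on, or at ZT13, 1 hour after lights-off, with 3 PBS and 5 LPS mice at each time of day (TOD). Whole cortex was used, so each value mixes all cell types of the tissue, and fewer oligodendrocytes and less RNA per oligodendrocyte cannot be told apart.

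Oligodendrocytes extend sheets of membrane that spiral around an axon, and the inner faces of the sheet are pressed together into compact myelin by basic proteins. Channels that stay open to the cytoplasm lie beside the compact part, and other proteins sit at the innermost layer next to the axon, on the outermost layer, or in tight junctions that run between the wraps. The cells arise from dividing precursors, pass through a short premyelinating stage, and then transcribe the myelin genes at a high rate under factors that include SOX10, OLIG2 and MYRF.

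*Mobp*, *Cnp* and *Opalin* were the members that changed after LPS at both TODs, *Mobp* upward and the others downward, and their promoter sequences are shown so that genes that moved in opposite directions can be read beside each other. Each sequence runs from 250 bases before to 50 bases after the annotated start, 5′ to 3′ on the strand of the gene, from RefSeq on GRCm38.p6. Capitals mark the letters ACAAAG and ACAATG, which SOX factors bind, CAGCTG, an E-box that OLIG2 binds, and CTGGCA, the core of the MYRF motif, on either strand. None of the marked matches in these sequences overlap each other.
Mobp, chr9:120149492-120149791, plus strand: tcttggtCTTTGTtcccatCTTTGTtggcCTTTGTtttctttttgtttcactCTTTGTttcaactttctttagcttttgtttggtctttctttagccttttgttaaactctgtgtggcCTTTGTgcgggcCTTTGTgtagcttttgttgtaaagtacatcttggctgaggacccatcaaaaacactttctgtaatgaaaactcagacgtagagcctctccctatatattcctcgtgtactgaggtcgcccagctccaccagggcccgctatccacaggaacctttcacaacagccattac
Cnp, chr11:100574689-100574988, plus strand: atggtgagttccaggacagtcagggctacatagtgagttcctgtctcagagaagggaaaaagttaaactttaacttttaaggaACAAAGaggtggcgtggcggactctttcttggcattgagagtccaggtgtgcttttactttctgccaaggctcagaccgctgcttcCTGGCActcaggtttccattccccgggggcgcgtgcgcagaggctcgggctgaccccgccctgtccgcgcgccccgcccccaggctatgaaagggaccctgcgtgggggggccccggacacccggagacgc
Opalin, chr19:41077064-41077363, minus strand: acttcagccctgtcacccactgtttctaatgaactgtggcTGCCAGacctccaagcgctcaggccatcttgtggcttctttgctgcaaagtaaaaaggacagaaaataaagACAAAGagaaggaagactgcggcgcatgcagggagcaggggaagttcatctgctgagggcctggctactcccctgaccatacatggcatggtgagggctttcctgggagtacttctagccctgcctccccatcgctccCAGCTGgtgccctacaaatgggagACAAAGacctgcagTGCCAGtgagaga
The *Mobp* window held 6 copies of ACAAAG, all read as CTTTGT on this strand, and no other marked motif. The *Cnp* window held 1 ACAAAG and 1 CTGGCA. The *Opalin* window held 2 ACAAAG, 1 CAGCTG and 2 CTGGCA. Of 32851 promoter windows of the same length, 18.7% held ACAAAG, 12.6% ACAATG, 16.3% CAGCTG and 20.6% CTGGCA, so each of these letters is common. These shares count windows with at least 1 match, and how many windows held 6 copies was not computed. Of the other members, *Cldn11* and *Mog* held CTGGCA, *Ermn* and *Enpp6* held ACAATG, and 2 of the 3 windows of *Mag* held both ACAAAG and CTGGCA. The E-box CACGTG, bound by the clock factors CLOCK and BMAL1, was present in 7.15% of windows. It was not found in any of the 10 windows of the 8 members matched, which do not include *Mbp*. A match of letters is a description and does not show that a factor binds there.

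Depth was 20251840 to 29112758 reads on genes per library, which put 54 to 151 reads on *Enpp6*, the least abundant member, and 24451 to 39726 on *Mbp*. *Gfap*, which marks reactive astrocytes, was 111 to 123 CPM (a gene's reads scaled to a library of 1000000) in PBS mice and 572 to 1134 CPM in LPS mice, and *Lcn2*, an acute-phase gene, was at most 0.197 CPM in PBS mice and at least 107 CPM in LPS mice, so the treatment in each title matched the data. *Dbp*, a clock output gene, was higher at ZT13 than at ZT1 in PBS mice (log2 difference 1.10, adjusted p = 0.0085). The clock genes *Nr1d1* (0.31, adjusted p = 0.087) and *Per2* (0.46, adjusted p = 0.185) were not called there. In LPS mice *Dbp* (0.20), *Nr1d1* (0.013) and *Per2* (-0.0014) were not called, so these genes do not check the time titles of LPS mice. *Ttr*, a transcript of the choroid plexus, exceeded 100 CPM in 10 of the 16 libraries, spread over all 4 groups, and a single fit of all 16 mice called 4 members at ZT1 and 7 at ZT13 both with and without the choroid plexus level as a covariate.

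The members spanned a wide range of abundance. Per kilobase of exon, *Mbp* was the highest in all 4 groups, with a mean of 158 CPM per kb in ZT1 PBS, 151 in ZT1 LPS, 165 in ZT13 PBS and 153 in ZT13 LPS. *Mobp* followed, at 63.7 and 72.5 CPM per kb in PBS mice of ZT1 and ZT13 and at 78.5 and 82.1 in LPS mice. *Cnp* and *Cldn11* came next and traded places between treatments. In PBS mice the level of *Cnp* was 52.4 and 57.8 CPM per kb and that of *Cldn11* was 49.7 and 57.6, with overlapping ranges. In LPS mice *Cldn11* was at 63.3 and 73.7 CPM per kb and *Cnp* at 44.0 and 44.2, with ranges that did not overlap, while *Cldn11* overlapped *Mobp* above it. *Mag* (23.0 to 29.5 as group means), *Mog* (11.2 to 17.5), *Ermn* (4.60 to 5.91), *Opalin* (1.502 to 2.94) and *Enpp6* (0.530 to 0.849) followed in this order in every group, each apart from its neighbours within a group.

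**Figure D1:**
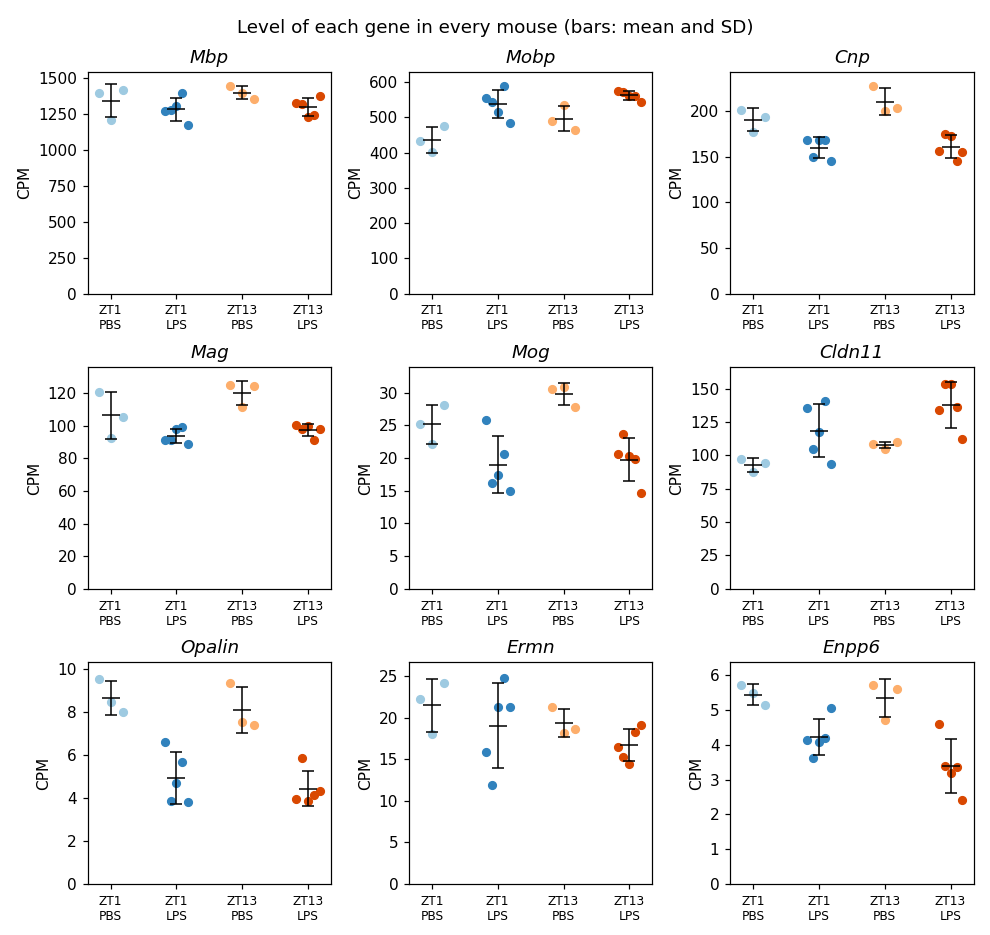
Level of each of the 9 genes in CPM (y axes, starting at 0) in every mouse of the 4 groups (x axes), with points for mice and bars for the mean and SD. The LPS points of *Mobp* lay above and those of *Cnp*, *Opalin* and *Enpp6* below all PBS points of the same TOD, while *Mbp* overlapped.

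LPS against PBS asked how the members responded to inflammation at each TOD. At ZT1, 3 of the 9 members passed the test, 1 higher (*Mobp*) and 2 lower (*Cnp* and *Opalin*). At ZT13, 7 passed, 2 higher (*Mobp* and *Cldn11*) and 5 lower (*Cnp*, *Mag*, *Mog*, *Opalin* and *Enpp6*). As background, 16.2% of all genes tested were called at ZT1 (11.1% higher and 5.15% lower) and 28.6% at ZT13 (19.2% higher and 9.4% lower). The split of all calls depended on scaling, with 2089 higher and 972 lower at ZT1 becoming 1668 and 1417 with median-of-ratios factors, and 3629 and 1772 at ZT13 becoming 2870 and 2759. The median log2 fold change of the members was -0.21 at ZT1 and -0.30 at ZT13, against 0.04 and 0.05 over all genes. LPS and PBS mice did not overlap for 4 members at ZT1, where the same held for 24.3% of all genes, and for 7 at ZT13, where it held for 31.2%.

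Among the proteins of compact myelin, *Mobp*, which encodes a small basic protein of the cytoplasmic face, rose at both TODs. At ZT1 it was 433, 401 and 475 CPM in PBS mice and 555, 544, 515, 589.7 and 484 CPM in LPS mice. At ZT13 it was 491, 534 and 465 CPM in PBS mice and 576, 571, 561, 562 and 543 CPM in LPS mice. Every LPS mouse lay above every PBS mouse of its TOD, although the lowest LPS mouse of each TOD was close to the highest PBS mouse. The log2 fold change was 0.30 (SE 0.066, adjusted p = 0.0099) at ZT1 and 0.18 (SE 0.041, adjusted p = 0.0044) at ZT13. Without ZT1 PBS replicate 2, the lowest of that group, the adjusted p at ZT1 was 0.060.

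*Mbp*, the main basic protein that compacts the membrane, was not called at either TOD. It ranged from 1207 to 1413 CPM in ZT1 PBS mice, 1168 to 1391 in ZT1 LPS, 1352 to 1445 in ZT13 PBS and 1229 to 1373 in ZT13 LPS, with overlap at both TODs. The log2 fold change was -0.06 (95% interval -0.20 to 0.07, adjusted p = 0.55) at ZT1 and -0.11 (interval -0.19 to -0.02, adjusted p = 0.061) at ZT13. Without ZT13 LPS replicate 5, the highest of its group, the adjusted p at ZT13 was 0.018. This was the only 1 of the 8 fits with a mouse left out that called *Mbp*, and the adjusted p reached 0.23.

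**Figure D2:**
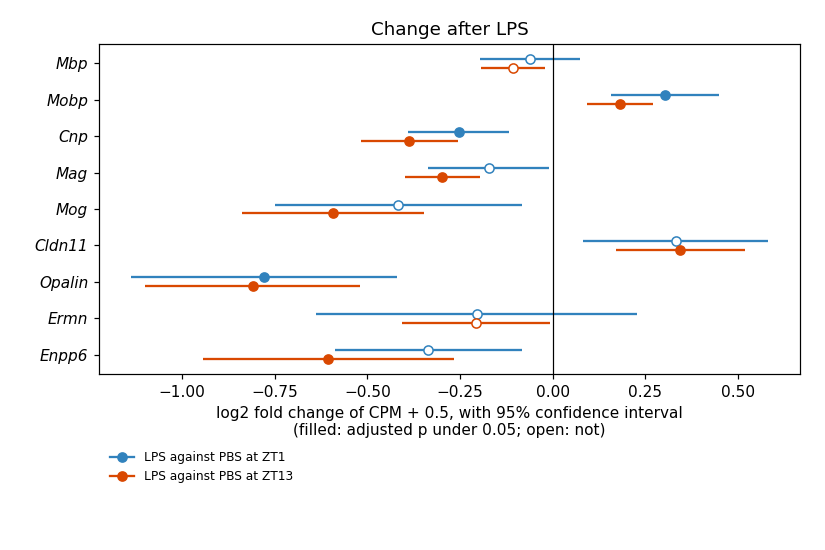
Log2 fold change of CPM + 0.5 after LPS (x axis) for the 9 genes (y axis) at ZT1 and ZT13, with 95% confidence intervals, filled where the adjusted p was under 0.05. *Mobp* and *Cldn11* lie to the right of 0, *Opalin* is the lowest at -0.78 and -0.81, and the intervals of the 2 TODs overlap for every gene.

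Of the proteins of non-compact myelin, *Cnp*, whose enzyme keeps the cytoplasmic channels open, fell at both TODs. At ZT1 it was 202, 177 and 194 CPM in PBS mice and 169, 149, 168, 168 and 146 CPM in LPS mice. At ZT13 it was 227, 201 and 203 CPM in PBS mice and 156, 175, 173, 146 and 155 CPM in LPS mice. All LPS mice were below all PBS mice of their TOD, by a narrow margin at ZT1. On the log2 scale it fell by 0.25 at ZT1 (SE 0.062, adjusted p = 0.017) and by 0.39 at ZT13 (SE 0.060, adjusted p = 2.5e-04). The call at ZT1 was lost without ZT1 PBS replicate 1 (adjusted p = 0.097) or replicate 3 (adjusted p = 0.078).

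*Mag*, an adhesion protein of the innermost membrane facing the axon, was 121, 92.6 and 106 CPM in ZT1 PBS mice and 91.4, 91.3, 97.9, 99.4 and 89.1 CPM in ZT1 LPS mice. At ZT13 it was 125, 112 and 124 CPM in PBS mice and 101, 97.8, 99.9, 91.4 and 98.3 CPM in LPS mice. The groups overlapped at ZT1 and were separate at ZT13. *Mag* fell by 0.30 on the log2 scale at ZT13 (SE 0.046, adjusted p = 2.5e-04). At ZT1 its log2 fold change was -0.17 (SE 0.074, adjusted p = 0.14). With a mouse left out, its ZT1 adjusted p was 0.031 (without ZT1 PBS replicate 2) to 0.53, and 1 of 8 fits called it. *Mog*, a glycoprotein on the outermost surface of the sheath, was 25.1, 22.2 and 28.2 CPM in ZT1 PBS mice and 25.9, 16.2, 17.5, 20.6 and 15.0 CPM in ZT1 LPS mice. The ZT13 values were 30.6, 30.9 and 27.9 CPM in PBS mice and 20.6, 23.7, 20.3, 19.8 and 14.6 CPM in LPS mice. A single ZT1 LPS mouse, replicate 1, lay within the PBS range, and at ZT13 none did. *Mog* fell by 0.59 at ZT13 (SE 0.11, adjusted p = 0.0013), and at ZT1 the log2 fold change was -0.42 (SE 0.15, adjusted p = 0.087). With a mouse left out, its ZT1 adjusted p was 0.011 (without ZT1 LPS replicate 1) to 0.28, and 1 of 8 fits called it.

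*Cldn11*, the claudin of the tight junctions between myelin wraps, was higher after LPS at ZT13. At ZT1 it was 97.4, 87.2 and 94.3 CPM in PBS mice and 135, 105, 117, 141 and 93.7 CPM in LPS mice. Those of ZT13 were 108, 105 and 109.8 CPM in PBS mice and 134, 153, 153, 136 and 112 CPM in LPS mice. At ZT1 replicate 5 of the LPS mice fell inside the PBS range, and at ZT13 all LPS mice were above the PBS mice. The log2 fold change was 0.34 (SE 0.081, adjusted p = 0.0055) at ZT13 and 0.33 (SE 0.11, adjusted p = 0.071) at ZT1. Without ZT1 LPS replicate 5 the adjusted p at ZT1 was 0.0095, and without replicate 2 it was 0.046. Only these 2 of the 8 fits with a mouse left out called *Cldn11*, and the adjusted p reached 0.22. *Cldn11* is also transcribed in the arachnoid, and of 8 genes of the meninges, a list chosen after the values were seen, 2 were higher and 1 lower at ZT1, and 4 were higher and 2 lower at ZT13. That is 37.5% and 75% called, against 16.2% and 28.6% of all genes. Their summed level was 149 to 239 CPM in ZT1 PBS, 178 to 232 in ZT1 LPS, 148 to 184 in ZT13 PBS and 165 to 186 in ZT13 LPS. The sum joins opposite changes, as *Dcn* rose by 1.54 at ZT1 and 2.13 at ZT13 while *Igf2* fell by 0.79 at ZT13. The part of the meninges in the *Cldn11* values was not tested.

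*Opalin*, a membrane glycoprotein specific to oligodendrocytes, had the largest change of the 9 members at both TODs. At ZT1 it was 9.52, 8.44 and 8.0 CPM in PBS mice and 6.58, 3.85, 4.71, 5.67 and 3.81 CPM in LPS mice. The ZT13 values were 9.34, 7.54 and 7.39 CPM in PBS mice and 3.94, 5.84, 3.86, 4.13 and 4.34 CPM in LPS mice. All 10 LPS mice were below all 6 PBS mice. It fell by 0.78 on the log2 scale at ZT1 (SE 0.16, adjusted p = 0.0077) and by 0.81 at ZT13 (SE 0.13, adjusted p = 4.1e-04), and both calls held with each mouse left out in turn.

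*Enpp6*, a choline-specific phosphodiesterase that is high in newly forming oligodendrocytes, was 5.72, 5.48 and 5.14 CPM in ZT1 PBS mice and 4.15, 3.63, 4.09, 4.20 and 5.08 CPM in ZT1 LPS mice. Those of ZT13 were 5.73, 4.72 and 5.60 CPM in PBS mice and 4.61, 3.39, 3.19, 3.37 and 2.42 CPM in LPS mice. The groups were separate at both TODs, with 1 LPS mouse next to the PBS range each time. *Enpp6* fell by 0.61 at ZT13 (SE 0.16, adjusted p = 0.0099), and at ZT1 the log2 fold change was -0.34 (SE 0.12, adjusted p = 0.070). With a mouse left out, its ZT1 adjusted p was 0.026 (without ZT1 LPS replicate 5) to 0.21, and 1 of 8 fits called it. *Ermn*, which encodes the cytoskeletal protein ermin of the mature sheath, was 18.02 to 24.2 CPM in ZT1 PBS mice, 11.9 to 24.8 in ZT1 LPS, 18.1 to 21.3 in ZT13 PBS and 14.4 to 19.1 in ZT13 LPS. It was not called at ZT1 (log2 fold change -0.21, SE 0.20, adjusted p = 0.54) or ZT13 (log2 fold change -0.21, SE 0.093, adjusted p = 0.11). With a mouse left out, the ZT13 adjusted p of *Ermn* was 0.041 (without ZT13 LPS replicate 5) to 0.39, and 1 of 8 fits called it.

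The members did not move as 1 block, which was described by ratios within each mouse, free of the scaling between libraries and chosen after the values were seen. The ratio of *Mobp* to *Cnp* in CPM was 2.15 to 2.45 in ZT1 PBS mice and 3.07 to 3.64 in ZT1 LPS mice, and 2.16 to 2.66 against 3.25 to 3.85 at ZT13. The ratio of *Cldn11* to *Cnp* was 0.483 to 0.492 and 0.476 to 0.540 in PBS mice, and 0.643 to 0.837 and 0.724 to 0.936 in LPS mice. That of *Mbp* to *Cnp* was 6.82 to 7.30 against 7.53 to 8.53 at ZT1, and 6.35 to 6.93 against 7.12 to 8.87 at ZT13. These 3 ratios were higher in every LPS mouse than in every PBS mouse of the same TOD. *Cnp* itself was lower in every LPS mouse, so for *Mobp*, and for *Cldn11* at ZT13, this follows from the separate values above. *Mbp* overlapped and did not rise, so its higher ratio reflects the lower *Cnp*. The ratio of *Opalin* to *Cnp* went the other way, at 0.0413 to 0.0477 against 0.0258 to 0.0390 at ZT1 and 0.0364 to 0.0411 against 0.0223 to 0.0334 at ZT13, and was lower in every LPS mouse. That of *Mog* to *Cnp* overlapped, at 0.125 to 0.145 against 0.103 to 0.153 at ZT1 and 0.134 to 0.154 against 0.0943 to 0.136 at ZT13. The ratio of *Mag* to *Cnp* overlapped between treatments as well, at 0.523 to 0.600 and 0.549 to 0.611 in PBS mice and 0.541 to 0.611 and 0.559 to 0.644 in LPS mice.

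**Figure D3:**
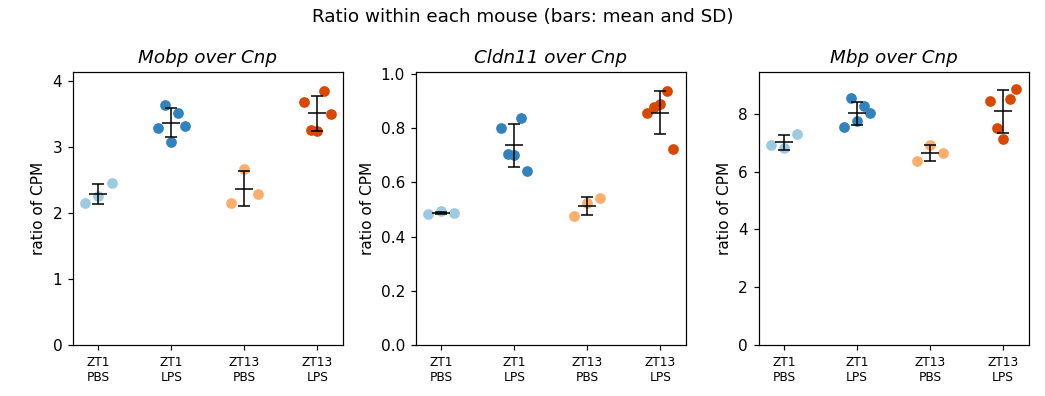
Ratio of CPM within each mouse (y axes, starting at 0) for *Mobp*, *Cldn11* and *Mbp* over *Cnp* in the 4 groups (x axes), with points for mice and bars for the mean and SD. In each panel the LPS mice lie above the PBS mice of the same TOD.

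TOD itself was compared next, within each treatment. No member was called between ZT13 and ZT1 in PBS mice by limma, where 0.52% of all genes were called, although 4 members had an unadjusted p under 0.05, as did 13.5% of all genes. Closest was *Cldn11*, with a log2 difference of 0.21 (95% interval 0.11 to 0.31, adjusted p = 0.091). Of the 9 members, it was the only 1 with all ZT13 PBS mice above all ZT1 PBS mice. The share of all genes separated between these groups was not computed, so this separation is a description only. The differences of *Mog* (0.24, adjusted p = 0.26), *Mobp* (0.19, adjusted p = 0.26) and *Cnp* (0.14, adjusted p = 0.34) were also positive, and the remaining members lay between -0.14 and 0.18. In LPS mice no member was called, none had an unadjusted p under 0.05, where 0.0212% of all genes were called and 10.6% had such a p. There the largest differences were -0.30 for *Enpp6* (95% interval -0.59 to 0.00048, adjusted p = 0.47) and 0.22 for *Cldn11* (interval -0.01 to 0.46, adjusted p = 0.51).

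The study asked whether the response to LPS depended on TOD, which is the TOD × treatment interaction. No member was called by limma over the 16 mice and none had an unadjusted p under 0.05, where 0.159% of all genes were called and 9.25% had such a p. The interaction was negative for 8 of the 9 members, though *Ermn* (-0.0028) and *Opalin* (-0.030) were near 0. It ranged from -0.27 for *Enpp6* (95% interval -0.69 to 0.15) to 0.01 for *Cldn11* (interval -0.32 to 0.34). The share of negative values over all genes was not computed, and members that vary together are not separate evidence. A negative value means a lower ratio of LPS to PBS at ZT13 than at ZT1, not necessarily a lower LPS level. The median difference of the members between ZT13 and ZT1 was 0.14 in PBS mice and 0.02 in LPS mice. So 7 calls at ZT13 against 3 at ZT1 are counts on 2 sides of a threshold, and a difference between the TODs was not shown for any member. The intervals still allow values down to -0.33 for *Cnp* and -0.62 for *Mog*.

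**Figure D4:**
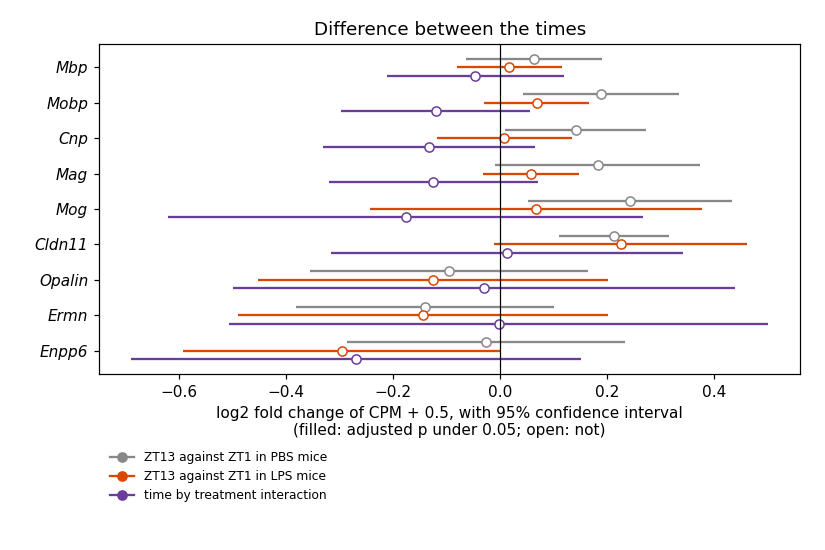
Log2 difference between ZT13 and ZT1 (x axis) for the 9 genes (y axis) in PBS mice and in LPS mice, and the TOD by treatment interaction, with 95% confidence intervals. All symbols are open because no adjusted p was under 0.05, and the PBS differences of *Cldn11*, *Mobp*, *Mog* and *Cnp* have intervals above 0.

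Other genes of the lineage, and those of the node and paranode of axon and glia, were read from lists by role. Their counts are to be set beside the 16.2% of all genes called at ZT1 and 28.6% at ZT13. Of 24 other tested genes of the myelin sheath and its membranes, 12 fell and 1 rose at ZT1, and 16 fell and 1 rose at ZT13, which is 54.2% and 70.8% called, with medians of -0.23 and -0.24. *Pllp*, plasmolipin of the myelin membrane, fell by 0.87 at ZT1 (adjusted p = 0.0021), and *Lpar1*, a receptor for lysophosphatidic acid, by 0.85 at ZT13 (adjusted p = 1.2e-06). The gene that rose was *Cd9*, a tetraspanin also made by other cells, by 0.51 and 0.69 (adjusted p = 0.0049 and 6.4e-05). With each mouse left out in turn, 8 to 14 of the 24 fell at ZT1 and 13 to 17 at ZT13.

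Of 12 genes of myelin lipid synthesis, 3 fell and 2 rose at ZT1, and 4 fell and 2 rose at ZT13. *Hmgcs1*, an early enzyme of cholesterol synthesis that neurons and astrocytes also use, fell by 0.48 and 0.73 (adjusted p = 7.9e-05 and 4.8e-08). *Ugt8a*, which makes galactocerebroside, fell by 0.60 at ZT13 (SE 0.063, adjusted p = 7.2e-06), while *Elovl1*, a fatty acid elongase, rose by 0.50 (SE 0.069, adjusted p = 8.7e-05). Of 11 transcription factors, 1 fell at ZT1 (9.09%, below the share over all genes), and 2 fell and 2 rose at ZT13 (36.4%, near that share). At ZT13 *Sox8* was 69.2 ± 12 CPM in the 3 PBS mice and 46.6 ± 3.9 CPM in the 5 LPS mice (± SD, here and below), with a log2 fold change of -0.55 (adjusted p = 4.7e-04), and *Olig1* fell by 0.26 (adjusted p = 0.0023), while *Nkx6-2*, a late homeobox factor, rose by 0.49 (adjusted p = 7.4e-04). *Olig1* kept its call under every alternative, and so did *Sox8* and *Nkx6-2*.

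Genes of earlier stages were mixed. Of 12 precursor genes, 2 fell and 3 rose at ZT1, and 5 fell and 2 rose at ZT13. *C1ql1*, a secreted synaptic organizer made by precursors, fell by 1.13 at ZT13 (SE 0.11, adjusted p = 4.0e-06), and *Vcan*, a proteoglycan of the precursor matrix, rose by 0.31 at ZT1 and 0.41 at ZT13 (adjusted p = 0.0087 and 8.2e-05). Of 11 genes of committed and newly formed cells, the stage that *Enpp6* marks, none fell and 1 rose at ZT1 (9.09%, again below the share over all genes), and 4 fell and 3 rose at ZT13 (63.6%). *Bmp4* fell by 0.59 (adjusted p = 0.0036) and *Itpr2*, an intracellular calcium channel, rose by 0.28 (adjusted p = 1.0e-04) at ZT13.

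Of 21 other genes of mature cells, 6 fell and 3 rose at ZT1, and 10 fell and 6 rose at ZT13. *Qdpr*, an enzyme of tetrahydrobiopterin recycling, fell by 0.60 at ZT13 (SE 0.061, adjusted p = 6.0e-06). *Apod*, a lipid carrier that astrocytes and vessel-associated cells can also make, went from 65.3 ± 8.0 to 391 ± 118 CPM at ZT1 and from 63.1 ± 8.7 to 660.4 ± 47 at ZT13, log2 fold changes of 2.53 and 3.38 (adjusted p = 9.9e-06 and 1.7e-12). The number of mature genes that fell at ZT1 was 1 to 7 with a mouse left out, and was 2 without ZT1 PBS replicate 1 or 2 and 1 without replicate 3. At ZT13 that number was 6 without ZT13 PBS replicate 1. Of 12 genes described in oligodendrocytes under inflammation, 9 rose at ZT1 and 9 at ZT13, 8 of them at both TODs, and the median log2 fold change was 1.28 and 1.84. In this list *Il33*, a cytokine released from damaged cells, fell by 0.25 at ZT13 (adjusted p = 0.022), a call lost without ZT13 PBS replicate 1 (adjusted p = 0.10) or replicate 3 (adjusted p = 0.096). The *Il33* call was also lost with all genes above 0 tested, with the replicate block, and in the single fit with or without the choroid plexus covariate. It held in 14 of 20 settings. *Serpina3n*, a protease inhibitor, went from 4.49 ± 0.47 to 201 ± 66 CPM at ZT1 and from 4.78 ± 0.42 to 321 ± 19 at ZT13 (log2 5.29 and 5.93), and *H2-K1*, a class I histocompatibility gene, rose by 2.90 and 3.32. Both genes are also induced in astrocytes, microglia or endothelium, so their cell of origin cannot be told apart in this tissue. The cells behind the changes of the other genes of this list cannot be told apart either. Of 12 genes of the node and paranode of axon and glia, 3 fell and 2 rose at ZT1. At ZT13, 7 of them fell and 1 rose. There *Cntn1*, an axonal partner of the paranodal loops, fell by 0.24 (SE 0.035, adjusted p = 1.5e-04). *Kcna1*, the juxtaparanodal potassium channel, rose by 0.22 at ZT13 (SE 0.032, adjusted p = 1.2e-04).

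**Figure D5:**
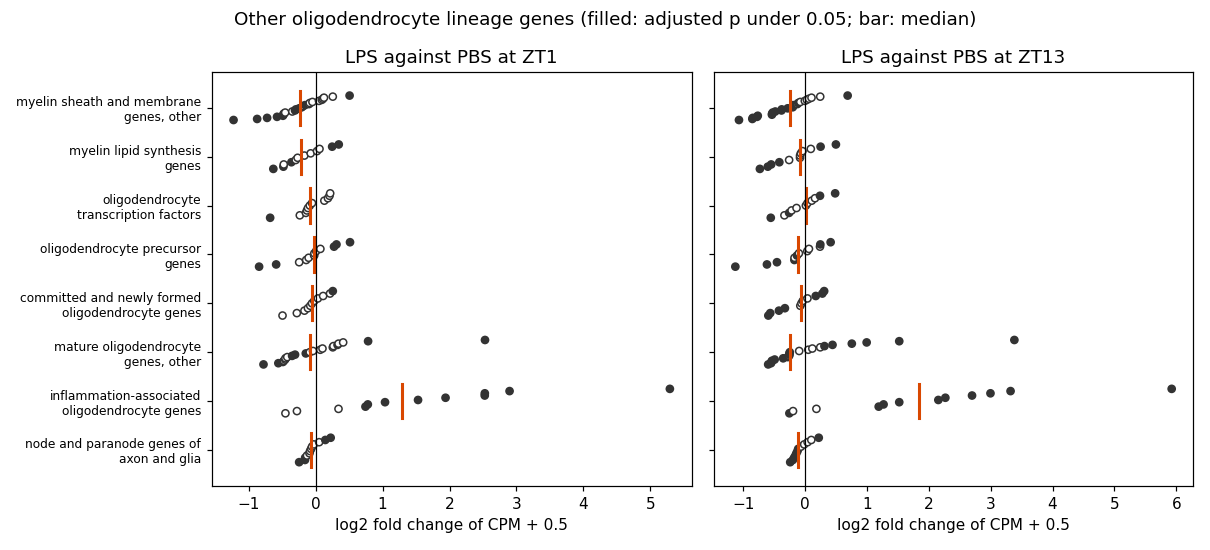
Log2 fold change of CPM + 0.5 after LPS (x axes) for the tested genes of 8 lists (y axis) at ZT1 and ZT13. The lists hold genes of the oligodendrocyte lineage and of the node and paranode of axon and glia. Symbols are filled where the adjusted p was under 0.05, with a bar at each median. The myelin sheath list has its median at -0.23 and -0.24, and the inflammation-associated list at 1.28 and 1.84.

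With single mice left out, the ZT1 counts moved most. Without ZT1 PBS replicate 1 no transcription factor and no node gene fell, and without replicate 3 no transcription factor fell and no lipid gene rose. The node genes that rose at ZT1 were 0 to 2, the lipid genes that fell 2 to 4, the precursor genes that fell 1 to 2 and the committed genes that fell 0 to 2. At ZT13 the ranges were 1 to 2 transcription factors higher, 3 to 5 precursor genes lower, 1 to 2 committed genes higher and 6 to 7 node genes lower. Some of these lists share genes, such as *Mal* and *Nfasc*, so their counts are not separate evidence. In the TOD comparisons and the interaction, a single gene of the 8 lists was called, *Sgk1*, a kinase induced by glucocorticoids, which was 1.03 higher on the log2 scale at ZT13 in PBS mice (SE 0.13, adjusted p = 0.011). Markers of other cells moved with LPS as well. Of 10 microglia markers, 8 rose and 1 fell at each TOD, and their sum was 237 to 260 and 238 to 252 CPM in PBS mice against 353 to 564 and 457 to 527 CPM in LPS mice. Of 10 endothelium markers, 8 rose and 1 fell at ZT1 and 9 rose at ZT13, with medians of 0.75 and 1.09, and their sum was 253 to 257 and 223 to 269.6 CPM in PBS mice against 361 to 449.6 and 440.1 to 477 CPM in LPS mice. In the interaction 5 of these 10 were called, all positive, but 0 to 5 with a mouse left out, with 0 left without ZT1 PBS replicate 1 or ZT13 PBS replicate 2. The interaction called 0 of them without the intensity trend or with all genes above 0 tested. Between TODs, 2 of the 10 were lower and 1 higher at ZT13 in PBS mice (median -0.29). In LPS mice 0 were called between TODs (median 0.17). The astrocyte sum was 5341 to 5530 and 5404 to 5789 CPM in PBS mice against 5845 to 6404 and 6192 to 6713 in LPS mice, and the neuron sum was 5311 to 5503 and 5383 to 5638 against 4899 to 5258 and 4886 to 5088. Of 9 markers of deep layers and of layer 6b next to the white matter, 2 fell at ZT1 and 3 at ZT13, and none rose. That is 22.2% and 33.3% called, against 16.2% and 28.6% of all genes. Of 8 markers of upper layers, 1 rose at ZT1 (12.5%) and 3 fell at ZT13 (37.5%). CPM are shares of a library, and the part of these shifts in the members' values was not tested.

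Over the 16 mice, once group means were removed, the 36 pairs of members correlated with r from -0.25 for *Mbp* and *Enpp6* to 0.85 for *Mog* and *Cldn11*, with a median of 0.31. *Mog* and *Cldn11* varied together from mouse to mouse, while at ZT13 LPS mice had less of the former and more of the latter. The genes outside the list most like the mean log2 level of the 9 members over the 16 mice were *Septin4* (r = 0.92), *Sox1ot* (0.91), *Ccp110* (0.90), *Itm2a* (0.89), *Tmem125* (0.88) and *Ptn* (0.88). With group means removed they were *Zfp711* (r = 0.91), *Tmem88b* (0.91), *Mlc1* (0.89), *Septin4* (0.88), *Stx2* (0.86) and *Sash3* (0.86). These correlations are descriptions over libraries that differed in depth and in choroid plexus RNA. The genes named are the highest of all those tested, so part of each r can come from this selection, and no p was computed.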

How the data were processed

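Cortical total RNA of 16 mice was depleted of ribosomal RNA (KAPA RiboErase) and sequenced. The submitters' notes name DRAGEN 4.0.3-8, bcl2fastq and GRCm38. The authors deposited CPM per gene. Of 55774 lines, 287 exact repeats were removed. Depth, read from the value of 1 read, was 20251840 to 29112758. Only 80.7% to 82.4% of values of up to 20 reads were whole within 0.01 reads, so no count test was run. Groups follow the titles. The treatment field contradicts them in 12 of 16 samples. Replicate numbers were not treated as pairs. Same-numbered samples had a residual r of -0.20 to 0.33 over 20 pairs, and without differently numbered pairs beside them this cannot settle whether the numbers pair mice. Genes that reached 1 CPM in 3 or more samples were fitted as log2(CPM + 0.5) with limma 3.58.1 (R 4.3.3) and an intensity trend, each pair of groups alone and the interaction on all 16, with Benjamini-Hochberg adjustment over all 18859 genes. Genes were called at an adjusted p under 0.05. Fold changes on this scale understate those of low genes. Simulated data with known changes were used to test the code of the fits. Whether mice of a group came from separate cages or batches is not given in the sources used here.

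Members and lists were chosen with earlier results of these data known. All members are named in each comparison, and from each other list at most the 2 largest and 2 smallest called changes. The meninges list, the ratios to *Cnp* and the choroid plexus covariate were chosen after values were seen. Some genes are not reported here. Exon lengths and positions came from GENCODE M21, which held 55141 of the 55487 genes. Promoters of 8 members came from RefSeq. Those of chromosome 18, where *Mbp* lies, were left out, also from the 32851 windows. Alternatives were other pseudocounts, filters, scalings, sample weights, a single fit, no trend, the replicate number as a block and each mouse left out. Python 3.11.15 (matplotlib 3.10.9, numpy 2.4.6, pandas 2.3.3) was used for the tables and plots.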

Additional observations from a re-analysis of the deposited data

Results flagged for a closer look

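In the 18 groups of 5 LPS mice examined, 9 members at 2 TODs, a single value lay far from the others by Dixon's criterion at the 95% level, which chance exceeds in about 1 of 20 groups. It was *Opalin* in ZT13 LPS replicate 2, at 5.84 CPM, where the other mice of that group lay between 3.86 and 4.34 CPM. The value was still below the lowest PBS mouse at ZT13, 7.39 CPM.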

How the results depend on the processing

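In the comparisons of LPS with PBS no member changed direction under any alternative. At ZT13 the 7 calls stayed between 5 and 9. At ZT1 the 3 calls became 0 with all genes above 0 tested, 1 without the intensity trend, 5 with quantile normalization, 6 with sample weights, and 6 with median-of-ratios factors and sample weights, and leaving out 1 mouse gave 2 to 5. No member was called between TODs or in the interaction under any alternative. The replicate block gave 5 members at ZT1 and 8 at ZT13, and because the numbers are not known to pair the mice this was not counted as evidence.

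Small differences between TODs changed sign. With sample weights the LPS-mouse difference of *Mbp* was -0.012 and of *Cnp* -0.023, and the interaction of *Cldn11* was -0.0011. With median-of-ratios factors *Cnp* was -0.0044. With both, *Mbp* was -0.026, *Cnp* -0.037 and the interaction of *Cldn11* -0.014. With the choroid plexus covariate, added after the data were seen, the interaction of *Cldn11* was -0.016 and of *Ermn* 0.012. With a mouse left out, the PBS-mouse difference ranged from -0.0093 to 0.10 for *Mbp* and from -0.075 to 0.053 for *Enpp6*, the LPS-mouse difference from -0.016 to 0.047 for *Mbp*, -0.025 to 0.043 for *Cnp* and -0.011 to 0.18 for *Mog*, and the interaction from -0.087 to 0.026 for *Mbp*, -0.068 to 0.084 for *Cldn11*, -0.13 to 0.073 for *Opalin* and -0.16 to 0.12 for *Ermn*. Of all genes, the 3061 called at ZT1 were 1605 with all genes above 0 tested. The 98 called between TODs in PBS mice were 3 without the trend and 199 with quantile normalization, the 4 in LPS mice were 0 without the trend and 225 with sample weights, and the 30 of the interaction were 11 and 124 under the same settings. The causes were not tested. Depth limits *Enpp6* and *Opalin* most, and 3 PBS mice per TOD limit the comparisons that use them.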
